A study of Mus musculus with 12 samples.

Results

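The nuclear genes of oxidative phosphorylation were measured in 12 RNA-seq libraries of CJ9, a line of mouse embryonic stem cells. They were taken from the deposited count table by name: every symbol that starts with Nduf, Uqcr or Atp5, or with Cox and a digit from 4 to 8, together with Cyc1 and Sdha to Sdhd. This rule found 91 of the 19680 listed genes, with 45 in complex I, 4 in complex II, 9 in complex III, 16 in complex IV and 17 in complex V. Grouping followed the symbol, so the assembly factors named Ndufaf were counted with complex I, and so was Ndufa4, a subunit that has since been placed in complex IV. Of the 91 genes, 86 had enough counts to be tested.

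The cells were wild type or carried the genotype labelled arid4b∆, and either genotype was differentiated for 5 days towards endoderm or towards mesoderm. Each of the 4 groups has 3 libraries of ribosomal RNA-depleted total RNA. The product of Arid4b belongs to the chromatin-modifying SIN3-HDAC complex, and the study asked what part it plays when embryonic stem cells commit to a lineage. The labels describe neither the allele nor the number of clones. They also do not say whether the 3 libraries of each group are separate cultures, and p-values therefore reflect library-to-library spread that could be technical.

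Total counts per library lay between 10351074 and 35660108, of which 1949299 to 6678893 were left once the ribosomal RNA precursor Rn45s was set aside. The 91 genes took 5690 to 15814 counts per library. Levels are given as CPM, the counts scaled to a common library size without Rn45s. Whole-gene counts of Arid4b, at 36.8 to 51.1 CPM in all libraries, were not called different between genotypes (edgeR adjusted p = 0.364 in endoderm and 0.599 in mesoderm), so they do not check the genotype labels. The lineage labels could be checked against markers. Summed over Sox17, Foxa2, Cxcr4, Gata6 and Cer1, the endoderm markers reached 133 to 209 CPM in wild type endoderm and at most 6.70 in arid4b∆ endoderm. Summed over T, Mesp1, Pdgfra, Kdr and Mixl1, the mesoderm markers reached 173 to 412 CPM in wild type mesoderm and at most 13.1 in arid4b∆ mesoderm, and they were also present in wild type endoderm, at 117 to 143 CPM. The arid4b∆ groups are therefore named by the lineage they were directed to. Pluripotency markers (Pou5f1, Nanog, Sox2, Zfp42 and Utf1) summed to 306 to 437 CPM in the wild type libraries and to 444 to 484 in the arid4b∆ libraries. The 5 did not move together. In arid4b∆, 3 were called higher and 1 lower in endoderm, and 2 higher and 1 lower in mesoderm. Of all tested genes, 12.7% were called in endoderm and 19.1% in mesoderm. In bulk libraries, fewer cells of a type and less RNA per cell cannot be told apart.

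Oxidative phosphorylation turns the energy of NADH and succinate into ATP at the inner mitochondrial membrane. Complex I (NADH dehydrogenase) and complex II (succinate dehydrogenase, which also works in the citric acid cycle) pass electrons to ubiquinone, complex III passes them to cytochrome c, and complex IV (cytochrome c oxidase) passes them to oxygen. Complexes I, III and IV pump protons, and complex V (ATP synthase) uses the proton gradient to make ATP. Most subunits are coded in the nucleus, and nuclear respiratory factor 1 (NRF1), ETS factors such as GABP, YY1 and SP1 are textbook regulators of their promoters. Pluripotent cells lean on glycolysis, and respiration commonly rises as cells differentiate.

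The promoters of the 4 genes called with genotype in either lineage, Sdha, Ndufaf4, Ndufaf1 and Cox6b2, are shown with the letters of these regulators. RefSeq promoter windows, which run from 250 bases before to 50 bases after a start on build GRCm38.p6, were available for 76 of the 91 genes. They were searched on both strands for the NRF1 motif (GCGC, any base, then TGCGC) and for CCGGAAG (ETS), AAGATGGCG (YY1) and GGGGCGGGG (SP1), and each motif was counted whether or not it overlapped another. Each stretch below is 200 bases that end just before the start site, written 5′ to 3′ on the strand of the gene, with matches on either strand in capitals. Sdha, at chr13:74350241-74350440 on the minus strand, holds 3 NRF1 matches. Ndufaf4, at chr4:24897883-24898082 on the plus strand, holds 1 NRF1 match. Ndufaf1, at chr2:119662835-119663034 on the minus strand, holds 1 ETS match, and an SP1 match lies further upstream. Cox6b2, at chr7:4753095-4753294 on the minus strand, holds 1 SP1 match.
Sdha: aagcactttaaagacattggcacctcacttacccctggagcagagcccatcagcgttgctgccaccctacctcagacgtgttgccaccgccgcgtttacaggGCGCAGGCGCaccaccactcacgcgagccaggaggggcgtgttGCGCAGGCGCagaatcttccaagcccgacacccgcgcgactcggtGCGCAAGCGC
Ndufaf4: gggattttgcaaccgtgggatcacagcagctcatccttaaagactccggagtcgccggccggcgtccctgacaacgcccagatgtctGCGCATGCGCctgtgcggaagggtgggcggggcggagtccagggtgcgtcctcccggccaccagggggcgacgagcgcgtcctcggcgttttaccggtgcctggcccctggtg
Ndufaf1: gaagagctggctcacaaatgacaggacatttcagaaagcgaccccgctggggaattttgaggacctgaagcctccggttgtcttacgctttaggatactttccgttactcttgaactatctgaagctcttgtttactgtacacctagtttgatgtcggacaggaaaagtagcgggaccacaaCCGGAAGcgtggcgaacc
Cox6b2: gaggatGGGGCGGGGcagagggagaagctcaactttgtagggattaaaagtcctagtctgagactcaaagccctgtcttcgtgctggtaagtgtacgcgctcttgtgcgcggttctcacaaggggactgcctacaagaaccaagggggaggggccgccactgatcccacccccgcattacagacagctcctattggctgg

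NRF1 letters were found in the windows of 19 of the 76 genes (25%), against 5.19% of the windows of all 27025 genes and 8.69% of those of the 14714 genes listed in the count table. YY1 letters were found in 8 (10.5%, against 1.64% and 2.61%) and ETS letters in 17 (22.4%, against 9.93% and 15.4%). SP1 letters were found in 13 (17.1%), between the share of all windows (12.9%) and that of the listed genes (20.8%). All told, 38 of the 76 windows held NRF1, ETS or YY1 letters. By complex, NRF1 letters lay in 9 of 39 windows of complex I, 2 of 3 of complex II, 1 of 5 of complex III, 1 of 13 of complex IV and 6 of 16 of complex V. The share was thus lowest in complex IV and, beside the few windows of complex II, highest in complex V. A match is a run of letters and not a bound site.

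All 5 complexes were expressed in all 4 groups, at levels per transcript length that spanned about 2 orders of magnitude. Atp5b, the catalytic beta subunit of ATP synthase, was highest at 231 CPM per kilobase (mean of 12 libraries), and Atp5s, a factor associated with ATP synthase, was lowest at 1.19 CPM per kilobase. Within complex I the range ran from Ndufa7, an accessory subunit, at 46.2 to the assembly factor Ndufaf3 at 2.16 CPM per kilobase. Within complex II it ran from the flavoprotein Sdha at 30.2 to the membrane anchor Sdhc at 6.57 CPM per kilobase. Complex III was narrow, from the accessory subunit Uqcrh at 44.5 to the Rieske iron-sulfur protein Uqcrfs1 at 20.0 CPM per kilobase. Complex IV ran from Cox4i1, its largest nuclear subunit, at 109.7 to Cox6b2, the testis form of subunit 6b, at 16.7 CPM per kilobase. The medians of the tested genes rose from complex I (14.4 CPM per kilobase) through complex II (22.5) and III (35.5) to V (46.1) and IV (49.4). For 6 of the 91 genes the longest principal transcript was over 1.5 times as long as the one used, among them Atp5g1 and Atp5g2, so their levels per length depend on that choice.

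**Figure D1:**
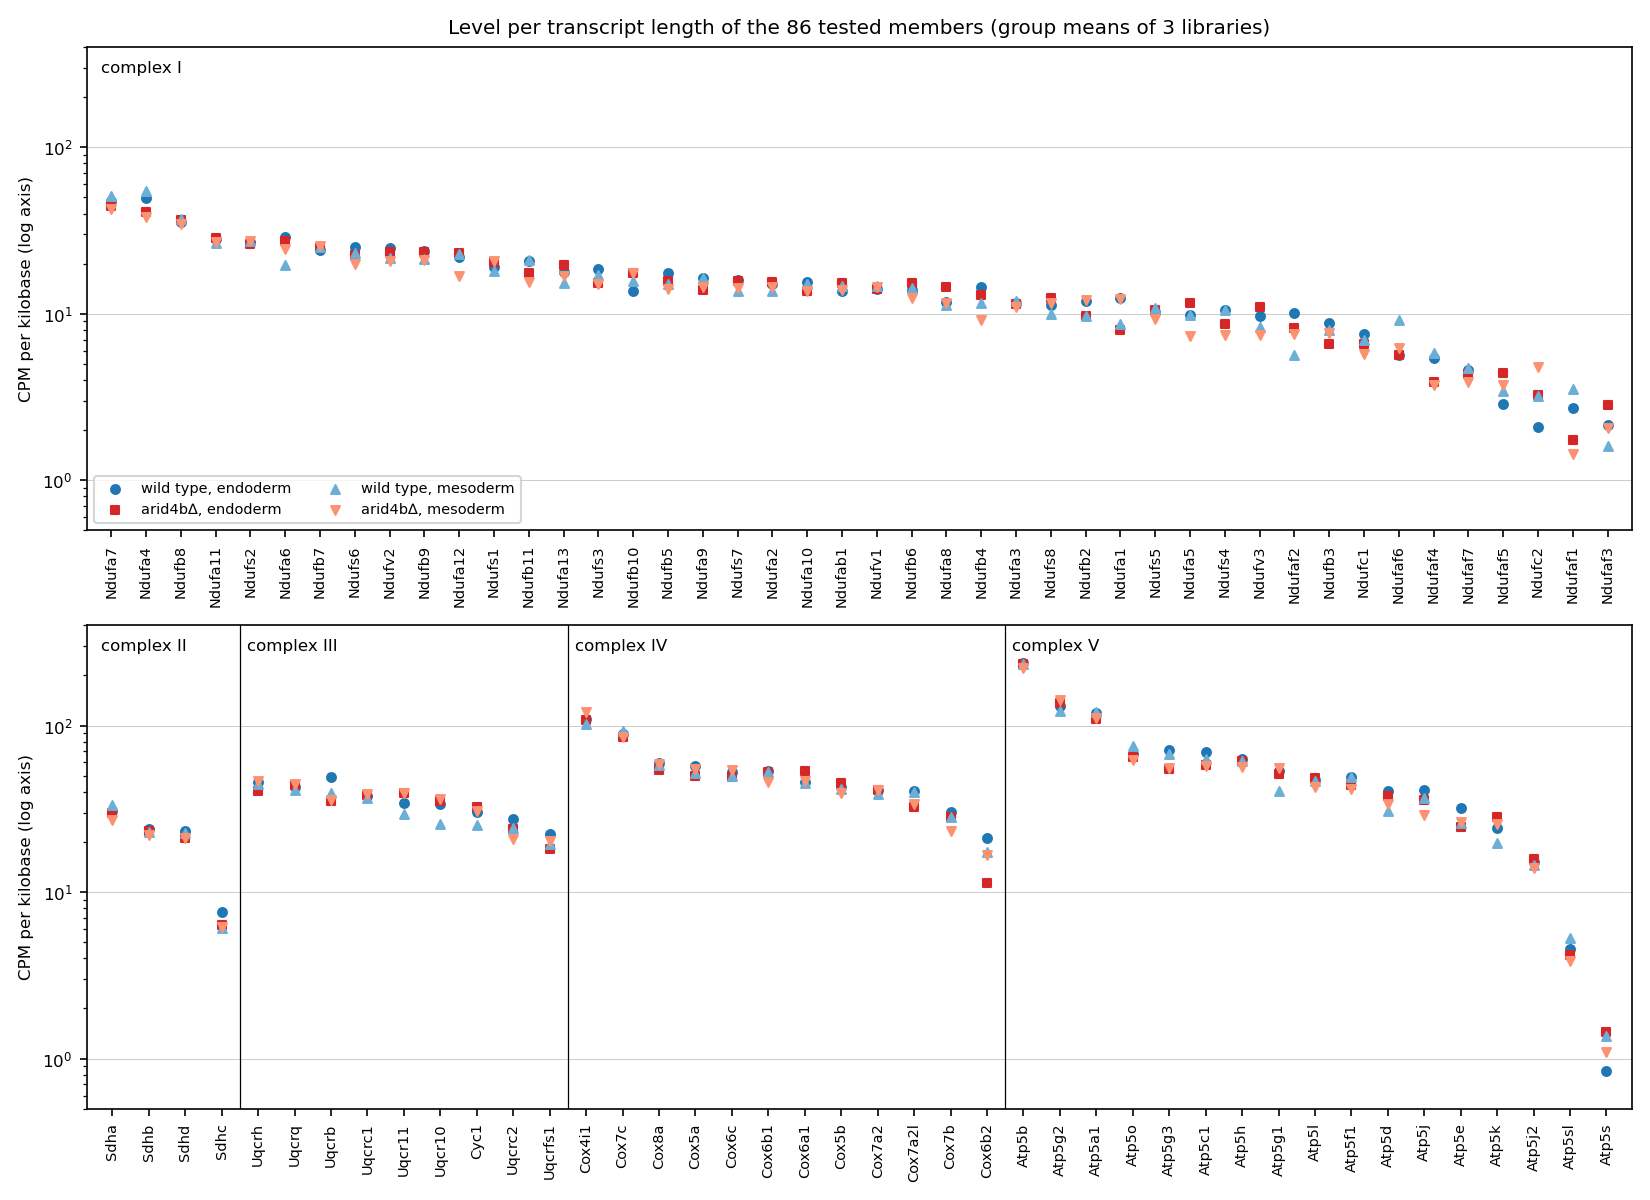
Level of the 86 tested genes per transcript length, in CPM per kilobase on a log axis, with 1 point for the mean of the 3 libraries of each group (circles, wild type endoderm; squares, arid4b∆ endoderm; upward triangles, wild type mesoderm; downward triangles, arid4b∆ mesoderm) and genes ordered by level within each complex. The 4 points of most genes lie close together while the genes themselves run from 231 to 1.19 CPM per kilobase.

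Levels were steady across libraries. The highest library was less than 2-fold above the lowest for 68 of the 86 genes, with a median of 1.72-fold. Atp5b varied least, 1.18-fold from 405 to 478 CPM. The widest ranges belonged to genes of few counts, Atp5s at 11.4-fold, Ndufaf3 at 10.2-fold and Ndufaf1 at 8.15-fold, where counting error is large.

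The forms of subunits known from muscle, lung, testis or hypoxia were scarce, apart from Cox6b2. Cox8b, the heart and skeletal muscle form of subunit 8, had 1 count in all 12 libraries together. Cox7b2 had 3, Cox4i2, the form of subunit 4 known from lung and hypoxia, had 7, and Ndufa4l2, which is induced by hypoxia in human cells, had 16. Cox7a1, the heart and muscle form of subunit 7a, had 36 counts in 11 of 12 libraries and reached 1.46 CPM at most. These are the 5 genes that were not tested, and their levels lie near or under the floor of 3 counts, which is 0.506 to 1.55 CPM depending on the library. Markers of cardiac and skeletal muscle summed to 3.36 to 11.8 CPM. The name rule found no symbol Cox6a2 or Cox8c, and the subunits coded in the mitochondrial genome were not analysed here.

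Summed over all its genes, each complex had overlapping levels in the 2 genotypes of endoderm. These sums are not scaled by transcript length, so genes of many counts weigh most. Complex I stood at 703 ± 46.1 CPM (SD, n = 3) in wild type and 680.1 ± 66.5 in arid4b∆ endoderm, and complex II at 169 ± 8.69 against 159 ± 7.35 CPM. Complex III stood at 289.7 ± 19.6 against 274 ± 34.0 CPM, complex IV at 433 ± 34.2 against 412 ± 46.9 and complex V at 1291 ± 72.0 against 1214 ± 85.9. The arid4b∆ mean was the lower of the 2 each time, by less than the larger SD for all but complex II. In mesoderm complex I stood at 681 ± 57.4 CPM in wild type and 633 ± 29.0 in arid4b∆, complex IV at 417 ± 60.6 against 415 ± 15.8, and complex V at 1257 ± 104 against 1177 ± 64.5. Complex II stood at 169.5 ± 16.8 CPM in wild type mesoderm and 149 ± 2.53 in arid4b∆ mesoderm, where the ranges just overlapped, at 150.2 to 180.1 against 147 to 151. Sdha alone made up 87.8 to 103 CPM of the wild type sums and 74.6 to 82.1 of the arid4b∆ sums. Complex III went the other way in mesoderm, at 258 ± 17.8 CPM in wild type and 273 ± 9.52 in arid4b∆. The 91 genes together took 0.725% ± 0.0370 of the counts in wild type endoderm and 0.681% ± 0.0514 in arid4b∆ endoderm, and 0.703% ± 0.0482 and 0.658% ± 0.0270 in mesoderm, with Rn45s, Mir6236 and Lars2 left out of the total. The arid4b∆ means were lower in both lineages, and within each lineage the ranges of the genotypes overlapped.

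**Figure D2:**
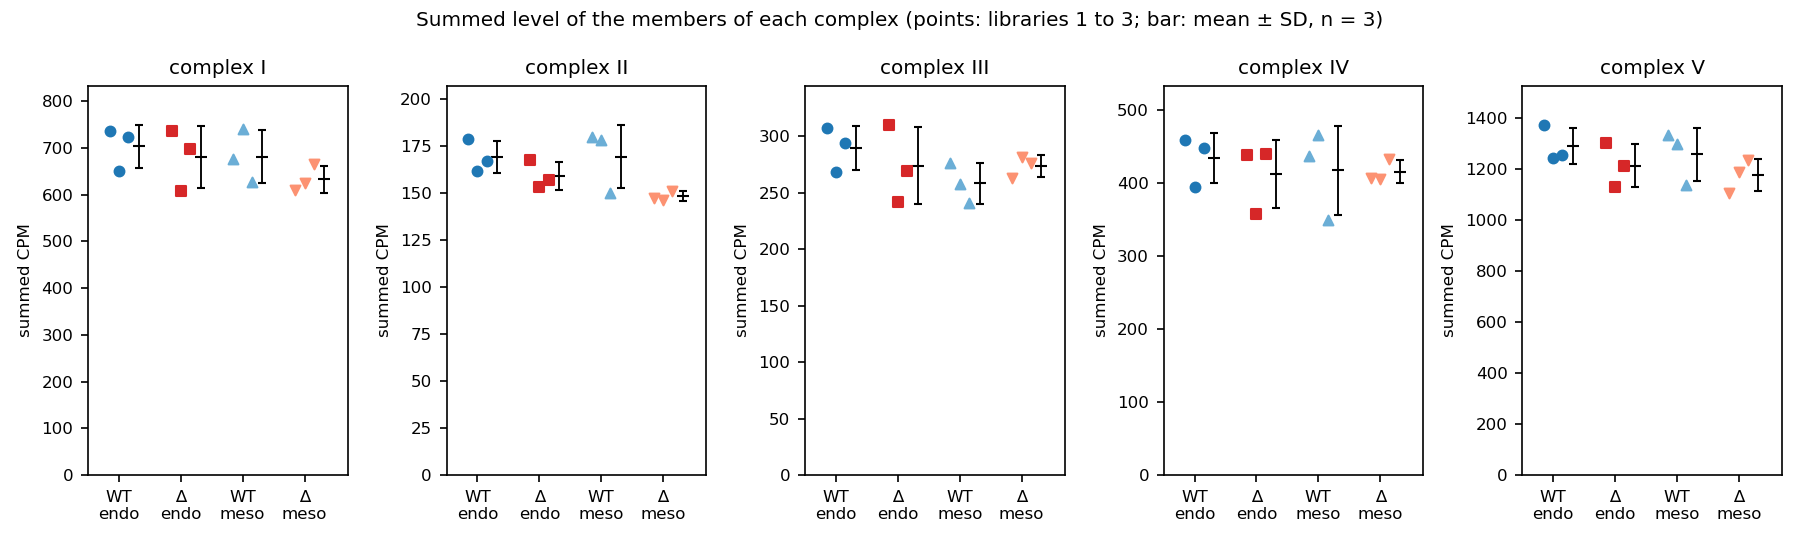
Summed level of the genes of each complex in CPM, on axes that start at 0, with 1 point per library and a bar for the mean ± SD of 3 libraries (WT, wild type; ∆, arid4b∆; endo and meso, endoderm and mesoderm). Within each lineage the points of the genotypes overlap in every panel. For complex II in mesoderm they nearly part, at 150.2 to 180.1 against 147 to 151 CPM. Complex II lay higher in arid4b∆ endoderm (153 to 168 CPM) than in arid4b∆ mesoderm, without overlap. Wild type endoderm lay above arid4b∆ mesoderm without overlap for complex II (162 to 179 CPM) and complex V (1245 to 1374 against 1107 to 1235).

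In endoderm, 2 of the 86 genes fell in arid4b∆ and 0 rose. Cox6b2 and the complex I assembly factor Ndufaf4 were the 2. Among all genes 12.7% of the 11635 tested genes were called at an adjusted p under 0.05 (edgeR quasi-likelihood test, Benjamini-Hochberg), 5.78% higher and 6.92% lower. Over the oxidative phosphorylation genes 2.33% were called. At an unadjusted p under 0.05 there were 8 of the 86 genes (9.30%), against 2934 of all 11635 (25.2%). The median log2 fold change was -0.06, against 0.00 over all tested genes, and 54 of the 86 estimates were below 0, against 5876 of all 11635. Members of each complex had medians close to 0, from -0.10 in complex II to 0.01 in complex III.

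Cox6b2 measured 12, 8.26 and 9.35 CPM in the wild type endoderm libraries and 5.54, 6.11 and 4.26 CPM in the arid4b∆ ones. The groups did not overlap. Its log2 fold change was -0.86 ± 0.25 (SE, edgeR adjusted p = 0.0245), a level 0.55 times that of wild type. In mesoderm it measured 9.01, 6.72 and 8.44 CPM in wild type and 5.61, 7.10 and 10.7 CPM in arid4b∆, and these overlap. Its partner Cox6b1, the form found in most tissues, did not follow. It measured 32.9 ± 1.62 CPM in wild type and 32.7 ± 2.71 in arid4b∆ endoderm, a log2 fold change of -0.01 with a 95% interval of -0.30 to 0.28. The call on Cox6b2 was lost without wild type library 1 (edgeR adjusted p = 0.112), wild type library 3 (0.0527) or arid4b∆ library 3 (0.118), and under DESeq2 (0.0697).

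Ndufaf4 measured 18.4, 20.0 and 21.0 CPM in wild type endoderm and 13.4, 15.1 and 13.8 CPM in arid4b∆ endoderm. All wild type libraries were above all arid4b∆ ones. The log2 fold change was -0.48 ± 0.16 (edgeR adjusted p = 0.046), and the call was lost without any 1 of the 6 libraries (adjusted p = 0.0621 to 0.142), with no filter on low counts (0.0571) and under DESeq2 (0.178).

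The next genes missed the threshold in endoderm. Uqcrb, a small subunit of complex III, measured 28.0, 22 and 28.6 CPM in wild type and 18.7, 17.2 and 20.5 CPM in arid4b∆ (log2 fold change -0.47 ± 0.16, edgeR adjusted p = 0.0592), without overlap, and was called without wild type library 2 (0.0425). Cox7a2l, which is known for joining complexes III and IV into supercomplexes, measured 42.6, 43.9 and 43.9 CPM in wild type and 37.3, 28.0 and 39.8 CPM in arid4b∆ (log2 fold change -0.33 ± 0.12, edgeR adjusted p = 0.0828), and was called without arid4b∆ library 3 (0.0415). The 1 gene whose arid4b∆ libraries all lay above the wild type ones was Ndufaf5, an assembly factor that acts as a hydroxylase in human cells, with a log2 fold change of 0.62 ± 0.29 (edgeR adjusted p = 0.189). In all, 10 of the 86 genes had groups that did not overlap in endoderm, 9 lower and 1 higher in arid4b∆. That is 11.6%, against 30.2% of all tested genes.

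**Figure D3:**
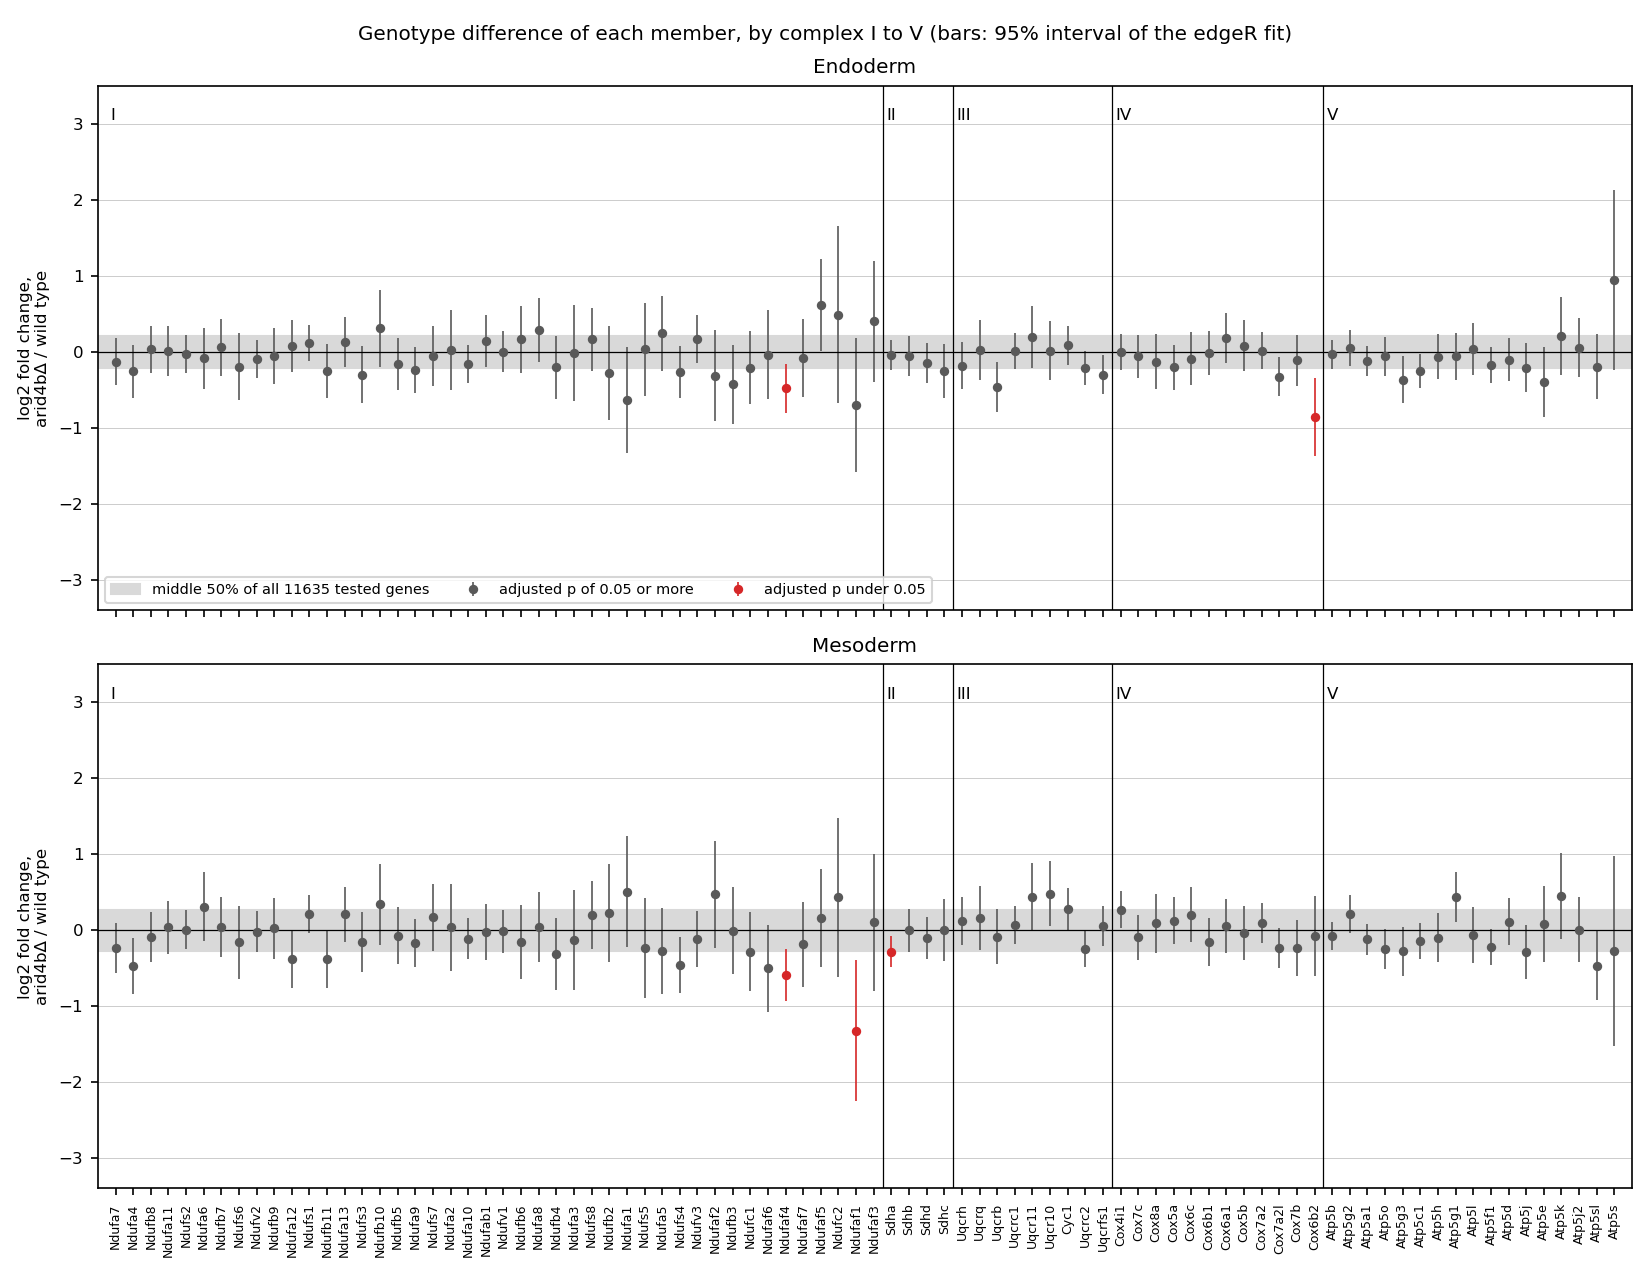
Log2 fold change of arid4b∆ over wild type for the 86 tested genes in endoderm (top) and mesoderm (bottom), ordered by complex and level, with the 95% interval of the edgeR fit. The grey band holds the middle 50% of all 11635 tested genes; red points, 2 in endoderm and 3 in mesoderm, have an adjusted p under 0.05, and all 5 lie below 0.

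In mesoderm, 3 of the 86 genes fell in arid4b∆ and 0 rose. The 3 were Ndufaf4 again, a second complex I assembly factor, Ndufaf1, and Sdha, the catalytic subunit of succinate dehydrogenase. The share called was 3.49%, against 19.1% of all tested genes, 8.97% higher and 10.1% lower. At an unadjusted p under 0.05 there were 12 of the 86 genes (14.0%), against 3628 of all 11635 (31.2%). The median log2 fold change was -0.03, against 0.01 over all tested genes, and by complex it ran from -0.10 in complex V to 0.12 in complex III.

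Ndufaf4 measured 17.8, 25.3 and 20.1 CPM in wild type mesoderm and 15.7, 13.6 and 11.5 CPM in arid4b∆ mesoderm. The groups did not overlap, as in endoderm. The log2 fold change was -0.59 ± 0.17 (edgeR adjusted p = 0.0149), and the call was lost without wild type library 2 (adjusted p = 0.0564) or arid4b∆ library 3 (0.0846) and under DESeq2 (0.0572). Ndufaf4 was the only 1 of the 86 genes called in both lineages.

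Ndufaf1, which helps to build the membrane arm of complex I, measured 3.25, 5.17 and 6.92 CPM in wild type mesoderm and 1.40, 2.16 and 2.68 CPM in arid4b∆ mesoderm. The groups did not overlap. It had 171 counts in all 12 libraries, so its fold change is broad, -1.32 on the log2 scale with a 95% interval of -2.25 to -0.39 (edgeR adjusted p = 0.0419). In endoderm it measured 3.21, 4.30 and 4.25 CPM in wild type and 2.91, 0.849 and 3.85 in arid4b∆, which overlap. The mesoderm call was lost without wild type library 2 (adjusted p = 0.068) or 3 (0.304), without arid4b∆ library 1 (0.15), 2 (0.0954) or 3 (0.0564), under DESeq2 (0.087) and under limma-voom (0.0743).

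Sdha measured 97.6, 103 and 87.8 CPM in wild type mesoderm and 74.6, 77.8 and 82.1 CPM in arid4b∆ mesoderm. These did not overlap, and the log2 fold change was -0.28 ± 0.10 (edgeR adjusted p = 0.0496), a level 0.821 times that of wild type. In endoderm Sdha stood at 89.0 ± 6.85 CPM in wild type and 86.6 ± 7.52 in arid4b∆, with a log2 interval of -0.24 to 0.16. The mesoderm call lies at the threshold and was lost under 11 of the 16 alternative settings, among them DESeq2 (adjusted p = 0.115) and the fits without wild type library 1 (0.107), wild type library 2 (0.135), arid4b∆ library 1 (0.147), 2 (0.118) or 3 (0.0672).

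The genes that came closest to the threshold without reaching it in mesoderm had estimates of both signs. Atp5g1, 1 of 3 genes for the c subunit of the ATP synthase ring, measured 28.5, 20.2 and 24.0 CPM in wild type and 32.0, 32.4 and 35.6 CPM in arid4b∆ (log2 fold change 0.43 ± 0.16, edgeR adjusted p = 0.0615). It was called higher with no filter on low counts (adjusted p = 0.0266), in a fit of the compared libraries alone (0.0496), with a replicate block (0.0346) and without wild type library 1 (0.0252). Without that library Uqcr10, a small subunit of complex III, was also called higher (0.0391). Ndufa4 had a log2 fold change of -0.47 ± 0.18 (edgeR adjusted p = 0.0642), and was called lower under 5 of the 16 alternative settings, among them the fits without wild type library 3 (0.0318) or arid4b∆ library 3 (0.0149). Ndufs4, an accessory subunit whose loss causes Leigh-like disease in mice, had a log2 fold change of -0.46 ± 0.18 (edgeR adjusted p = 0.0796). Without wild type library 3 it was called lower (0.0222), and so was Ndufa12, an accessory subunit of complex I (0.0156). Cox4i1 measured 78.1, 85.8 and 63.3 CPM in wild type and 86.6, 93.5 and 88.3 CPM in arid4b∆ (log2 fold change 0.27 ± 0.12, edgeR adjusted p = 0.119). Cox4i1 lies on chromosome 8, where the median log2 fold change of all 648 tested genes in arid4b∆ was 0.23 in endoderm and 0.27 in mesoderm. The part of the chromosome in its value was not tested. In all, 17 of the 86 genes had groups that did not overlap in mesoderm, 11 lower and 6 higher in arid4b∆. That is 19.8%, against 32.8% of all tested genes.

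**Figure D4:**
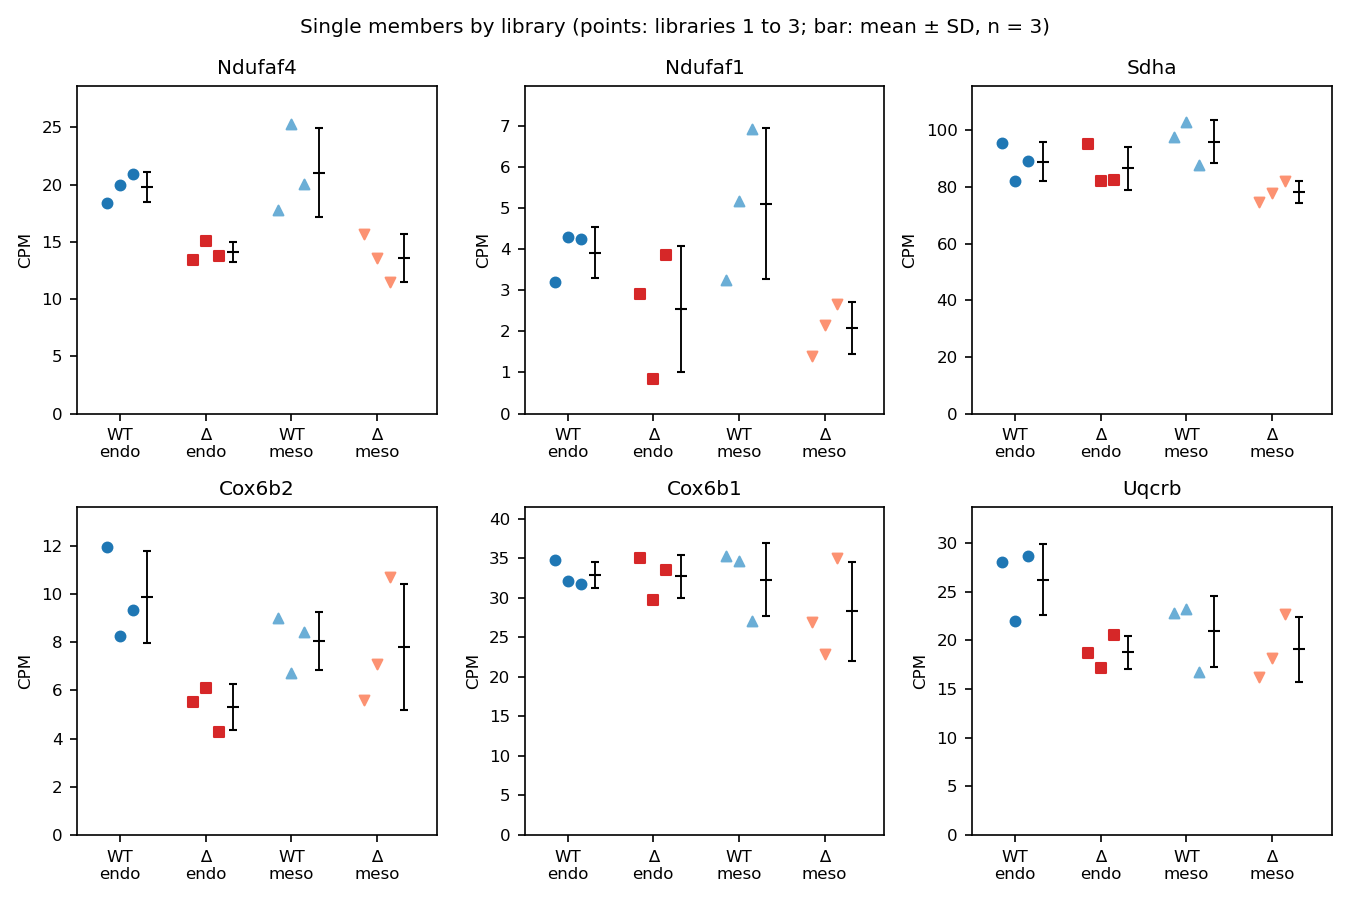
Level in CPM of the 4 genes called with genotype in either lineage, of Cox6b1 beside Cox6b2, and of Uqcrb, with 1 point per library and a bar for the mean ± SD of 3 libraries, on axes that start at 0. Ndufaf4 parts by genotype in both lineages, Cox6b2 and Uqcrb in endoderm, and Ndufaf1 and Sdha in mesoderm, while Cox6b1 overlaps in both.

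The precision of the fit bounds what could have been missed. In endoderm the 95% interval of 79 of the 86 genes lay within 2-fold either way (91.9%, against 76.3% of all tested genes), and that of 53 lay within 1.5-fold. In mesoderm these counts were 78 and 49. For Atp5b the interval of the fold was 0.858 to 1.11 in endoderm and 0.831 to 1.08 in mesoderm. For Ndufv1, the flavoprotein of complex I that binds NADH, it was 0.83 to 1.21 and 0.815 to 1.20. The standard errors of these genes were little smaller than those of all genes, with a median of 0.16 against 0.18 on the log2 scale in endoderm and 0.18 against 0.19 in mesoderm. Their absolute log2 fold changes had a median of 0.15 against 0.21 in endoderm and 0.16 against 0.26 in mesoderm.

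By role, 1 of the 7 tested assembly factors named Ndufaf fell in endoderm (14.3%, against 12.7% of all tested genes) and 2 in mesoderm (28.6%, against 19.1%). These are not all assembly factors of complex I. Others lie outside the name rule and are given below, among them Ecsit, which was called higher in mesoderm. Of 54 accessory subunits none was called in either lineage, and of 21 core subunits, which carry the redox centres, proton paths or the catalytic head, Sdha in mesoderm was called. The other call belonged to Cox6b2, the single tested gene among the restricted forms. With so few calls these counts are a description.

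The endoderm and mesoderm comparisons share no libraries. The signs of their estimates matched for 59 of the 86 genes (68.6%, against 70.8% of all tested genes), 38 lower in both and 21 higher in both. Across genes, which are not independent replicates, the estimates correlated with Pearson's r of 0.31 and Spearman's rho of 0.34, against 0.60 and 0.56 over all tested genes. Ndufaf4 and Cox7a2l had groups without overlap in both lineages, lower in arid4b∆ each time, and no gene had groups parted in opposite directions. None of the 86 genes had a genotype effect that differed between lineages by the interaction term at an adjusted p under 0.05 (edgeR), against 1.4% of all tested genes. At an unadjusted p under 0.05 there were 3 of the 86 genes (3.49%), against 10.4% of all tested genes. Ndufa1, an X-linked accessory subunit, had the smallest adjusted p (interaction -1.14 ± 0.48 on the log2 scale, 0.374), followed by Atp5g1 (-0.49 ± 0.22, 0.411) and Cox6b2 (-0.79 ± 0.36, 0.437). The call on Cox6b2 in endoderm alone is therefore not shown to differ from its value in mesoderm, and the same holds for Ndufaf1 and Sdha.

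Between the lineages of wild type cells, none of the 86 genes was called, against 9.84% of all tested genes. At an unadjusted p under 0.05 (edgeR) there were 6 of the 86 genes (6.98%), against 21.6% of all tested genes. The median log2 ratio of endoderm over mesoderm was 0.09, against 0.01 over all tested genes. The estimates of all 9 complex III genes and of 11 of 12 complex IV genes were above 0. Those of 63 of the 86 genes and of 5966 of all 11635 tested genes were above 0. Genes are not independent replicates here. In wild type mesoderm library 3, complex IV summed to 349 CPM, against 436 and 466 in libraries 1 and 2. In wild type endoderm it summed to 394 to 458 CPM. Atp5d, the delta subunit of ATP synthase, measured 37.9, 38.7 and 36.8 CPM in endoderm and 37.5, 23.3 and 25 in mesoderm (log2 ratio 0.39 ± 0.14, edgeR adjusted p = 0.100). Without wild type mesoderm library 1, which stood with the endoderm libraries, the log2 ratio was 0.64 (edgeR adjusted p = 0.00175). Without mesoderm library 2 it was 0.30 (0.26), and without library 3 it was 0.24 (0.484). Ndufaf2, a complex I assembly factor, measured 7.30, 5.33 and 7.93 CPM in endoderm and 3.75, 4.13 and 3.54 in mesoderm, without overlap (log2 ratio 0.84 ± 0.32, edgeR adjusted p = 0.109). Ndufa6, an accessory subunit, had a log2 ratio of 0.51 ± 0.21 (edgeR adjusted p = 0.146, and 0.0433 without wild type endoderm library 2). In 4 of the 86 genes the groups did not overlap (4.65%, against 24.5% of all tested genes), each higher in endoderm.

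Between the lineages of arid4b∆ cells, none of the 86 genes was called either, against 1.85% of all tested genes. At an unadjusted p under 0.05 (edgeR) there were 5 of the 86 genes (5.81%), against 12.7% of all tested genes. The median log2 ratio of endoderm over mesoderm was 0.07, against -0.01 over all tested genes. The 3 genes of smallest adjusted p code for accessory subunits of complex I, Ndufv3 with a log2 ratio of 0.55 ± 0.16 (edgeR adjusted p = 0.0946), Ndufa12 with 0.44 ± 0.18 (0.266) and Ndufa5 with 0.63 ± 0.25 (0.269). Ndufv3 measured 18.9, 16.6 and 16.8 CPM in endoderm and 12.6, 10.8 and 12 in mesoderm, without overlap. The summed level of complex II also parted, at 153 to 168 CPM in endoderm and 147 to 151 in mesoderm. Sdha alone made up 82.2 to 95.3 CPM of the endoderm sums and 74.6 to 82.1 of the mesoderm sums. The sums of the other complexes overlapped, and no sum was tested. Complex III, where the wild type estimates were all above 0, had 2 of 9 estimates above 0 here, and these 2 comparisons share no libraries. Of all 11635 tested genes 5666 had estimates above 0 here.

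Shares within pairs or trios of genes for 1 subunit, per transcript length, do not depend on library scaling. Of the Cox6b transcripts, Cox6b2 made up 28.3% ± 2.99 (SD, n = 3) in wild type endoderm and 17.8% ± 3.52 in arid4b∆ endoderm. The libraries ran from 25.4% to 31.4% and from 14.5% to 21.5%, without overlap. In mesoderm the shares were 25.1% ± 4.43 and 26.6% ± 4.26, which overlap. Of the ATP synthase c subunit transcripts, whose 3 genes code for the same mature protein, Atp5g2 made up at least 48.2% in each library. Atp5g3 made up 27.5% ± 3.27 in wild type endoderm and 22.5% ± 0.712 in arid4b∆ endoderm, and 29.3% ± 1.77 and 21.9% ± 2.65 in mesoderm. The genotypes did not overlap in either lineage. Atp5g1 made up 17.6% ± 2.03 in wild type mesoderm and 22.2% ± 1.17 in arid4b∆ mesoderm, also without overlap. These shares were not tested. Across all genes and libraries, neither Atp5g1 nor Atp5g3 passed the test in either lineage (Atp5g3 in endoderm, log2 fold change -0.36 ± 0.15, edgeR adjusted p = 0.120). Atp5g3 in endoderm was called lower with no filter on low counts (0.0345) and without wild type library 2 (0.0244).

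**Figure D5:**
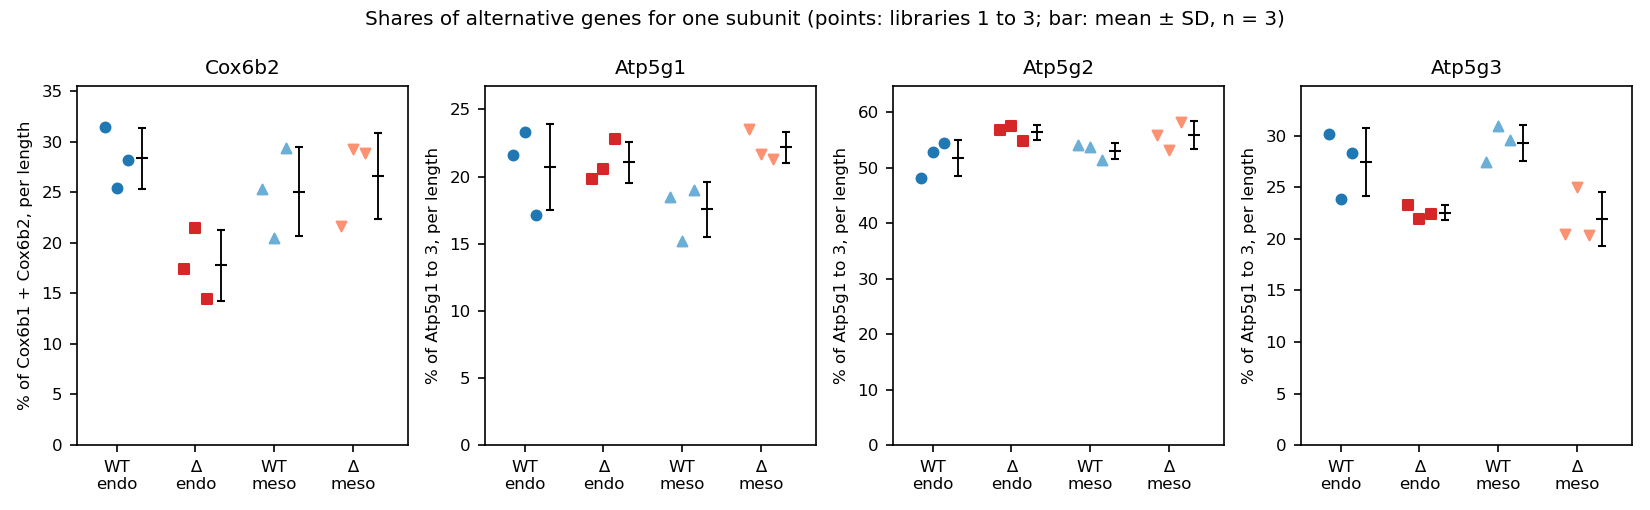
Share of Cox6b2 in the transcripts of both Cox6b genes, and of Atp5g1, Atp5g2 and Atp5g3 in those of the 3 ATP synthase c subunit genes, in percent per transcript length, with 1 point per library and a bar for the mean ± SD of 3 libraries, on axes that start at 0. The share of Cox6b2 parts by genotype in endoderm (28.3% against 17.8%), and that of Atp5g3 in both lineages. That of Atp5g2 parts narrowly in endoderm, at most 54.5% in wild type and at least 54.8% in arid4b∆. That of Atp5g1 parts in mesoderm.

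Genes with and without NRF1 letters had medians near 0 in both lineages. In endoderm the 19 genes with NRF1 letters had a median log2 fold change of -0.04 and the 54 tested genes whose window lacked them -0.09. In mesoderm the medians were -0.10 and -0.05.

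Genes that work beside the complexes held 2 calls in endoderm, where 12.7% of all tested genes were called. Of 41 tested assembly factors whose names lie outside the rule, none was called, nor was any of 14 transcriptional regulators of mitochondrial genes, 19 genes of the outer membrane and import machinery or 4 uncoupling and ADP carrier genes. Of 15 genes of cytochrome c and coenzyme Q synthesis, Adck4, a kinase-like protein of coenzyme Q synthesis, fell from 6.92 ± 1.08 to 3.07 ± 0.578 CPM (log2 fold change -1.15 ± 0.33, edgeR adjusted p = 0.0229). Its call was lost without wild type library 1 (0.0882) or 2 (0.0617), without arid4b∆ library 3 (0.104) and under DESeq2 (0.0577). Of these 15 genes 6.67% were called, 11 had estimates below 0, and the median was -0.22 on the log2 scale. In mesoderm the list leaned the other way, with 12 of the 15 estimates above 0 and a median of 0.14. Of 18 citric acid cycle genes, Pdha1, the X-linked alpha subunit of pyruvate dehydrogenase, which feeds the cycle, fell from 72.6 ± 1.74 to 52.0 ± 2.36 CPM (log2 fold change -0.48 ± 0.11, edgeR adjusted p = 0.00466), which makes 5.56% called.

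In mesoderm the same lists held calls in both directions, where 19.1% of all tested genes were called. Pdha1 fell again, from 89.7 ± 14.4 to 61.8 ± 3.96 CPM (log2 fold change -0.53 ± 0.11, edgeR adjusted p = 0.00137). Over all 412 tested X-linked genes the median log2 fold change was -0.06 in endoderm and -0.17 in mesoderm. Cs, citrate synthase, rose from 75.9 ± 4.22 to 98.0 ± 4.24 CPM (log2 fold change 0.36 ± 0.09, edgeR adjusted p = 0.00764). These were 11.1% of the 18 citric acid cycle genes. Of the 41 assembly factors, 2 rose and 2 fell (9.76%). Ecsit, which in human cells works in the same assembly complex as NDUFAF1, rose from 8.28 ± 1.53 to 14.8 ± 1.21 CPM (log2 fold change 0.90 ± 0.20, edgeR adjusted p = 0.00275), while Ndufaf1 itself fell. Chchd4, an import factor of the intermembrane space, rose (0.60 ± 0.21, edgeR adjusted p = 0.0482), a call lost under 10 of 16 alternative settings, among them the fits without wild type library 1 (0.122) or 3 (0.182) or any 1 arid4b∆ library (0.0575 to 0.187). The complex IV factors Coa5 (-0.42 ± 0.12, edgeR adjusted p = 0.0127) and Higd2a (-0.86 ± 0.24, 0.0128) fell. Both calls were lost without arid4b∆ library 2 (0.0524 and 0.0672), and that on Higd2a also without library 3 (0.0643). Of the 15 coenzyme Q and cytochrome c genes, Pdss1, which makes the tail of coenzyme Q, rose from 4.23 ± 1.05 to 9.23 ± 1.34 CPM (log2 fold change 1.19 ± 0.28, edgeR adjusted p = 0.00372), 6.67% of the list. Of 14 regulators, Pprc1, a coactivator related to PGC-1, rose (0.49 ± 0.11, edgeR adjusted p = 0.00272), 7.14% of that list. Of 19 outer membrane and import genes, the pore Tomm40 (0.50 ± 0.12, 0.00522) and the receptor Tomm20 (0.32 ± 0.09, 0.0163) rose (10.5%). Without wild type library 3 the calls on Tomm40 (0.0712), Tomm20 (0.0705) and Pdss1 (0.0534) were lost, and that on Tomm20 was also lost without arid4b∆ library 2 (0.0786). Of 4 carriers, Slc25a4, the ADP/ATP carrier of heart and muscle, fell (-0.33 ± 0.11, edgeR adjusted p = 0.0322), a call lost under 8 of 16 alternative settings, among them the fits without wild type library 2 (0.101) or 3 (0.081) or arid4b∆ library 1 (0.133) or 2 (0.0732). Between lineages, Tomm40 was higher in wild type endoderm than mesoderm (0.45 ± 0.12, edgeR adjusted p = 0.0154), and Esrrb, an orphan nuclear receptor and pluripotency factor, was lower in endoderm in wild type (-3.15 ± 0.62, 0.0014) and in arid4b∆ cells (-1.88 ± 0.46, 0.0357), and no other gene of these lists was called. The call on Tomm40 was lost without wild type endoderm library 1 (0.0712) or 2 (0.0502) or mesoderm library 3 (0.214). That on Esrrb in arid4b∆ cells was lost without endoderm library 1 (0.0626) or 2 (0.259), or mesoderm library 2 (0.132) or 3 (0.292). No gene of these lists was called by the interaction term.

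Markers of fibroblasts or feeder cells moved with genotype in endoderm. Summed over 8 genes, of which 7 had counts in wild type endoderm and 8 in each other group, they ran from 42.8 to 111 CPM in wild type endoderm and from 100.2 to 312 in arid4b∆ endoderm, and 4 of 7 tested were called higher. In mesoderm they ran from 115 to 190.4 and from 127 to 293, and 1 of 7 was called higher and 1 lower. Their part in the values of Cox6b2, Ndufaf4 or Adck4 was not tested.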

How the data were processed

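The authors deposited whole-number counts for each gene and library, made from directional total RNA-seq. The submitters' processing notes name STAR, DESeq2 and build mm10. Their versions and roles, the read counter, the annotation and any use of strand were not given in the sources used here. Genes with near-identical copies could therefore share reads.

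The genes of interest and all other lists were chosen with earlier results of these data known. Rn45s, 79.7% to 82.4% of each library, entered neither library sizes nor tests, and 26 genes with a date in place of a count (0 of the 91) were left out of tests. Mir6236 and Lars2, which took 49.7% to 69.5% of the remaining counts, were kept. Tests used edgeR 4.0.16 under R 4.3.3, with scaling by TMM (trimmed mean of M values). The filter was filterByExpr at a minimum count of 10, and 11635 genes entered 1 fit of 4 group means over 12 libraries. Contrasts were tested by the quasi-likelihood test at a Benjamini-Hochberg adjusted p under 0.05 over all tested genes. The standard error is the size of the log2 fold change over the square root of F. The biological coefficient of variation was 9.71%. The fit was tested on simulated data. Levels per kilobase used the shortest of the best-supported principal transcripts of GENCODE. Alternatives included DESeq2 1.42.0, limma-voom (limma 3.58.1), other scalings and filters, a replicate block and leaving out each library.

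Named in each comparison are the genes called (else the 3 of smallest adjusted p), the highest and lowest per complex, the tissue forms of subunits, and the called genes of other lists. Genes named as closest to the threshold or as called under an alternative, with Cox6b1, Atp5b, Ndufv1, Ndufaf5 and the Atp5g genes, were added after their values were seen. No 2 libraries held identical counts (chi-square per degree of freedom 1.60 to 4.41 between replicates). The main fit did not pair libraries by replicate number. Floors of 3 counts cover counting error only.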

Additional observations from a re-analysis of the deposited data

How the results depend on the processing

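The 5 median log2 fold changes moved from the reported values by less than the SD between libraries (0.12) under every alternative run, but their sign did not hold. Leaving out 1 library gave -0.11 to 0.04 in endoderm, -0.15 to 0.03 in mesoderm, -0.08 to 0.08 for the interaction, -0.01 to 0.16 between wild type lineages and -0.01 to 0.14 between arid4b∆ lineages. The few calls depended on the processing. In endoderm 2 genes were called, 0 under DESeq2, 0 against a 1.5-fold threshold, and 0 to 3 without 1 library. In mesoderm 3 were called, 0 under DESeq2, 1 under limma-voom, 0 against a 1.5-fold threshold, and 0 to 5 without 1 library: 0 without wild type library 2 and 5 without wild type library 3. Between wild type lineages 0 were called, 1 without a filter on low counts (Atp5d) and 0 to 2 without 1 library. No gene was called by the interaction or between arid4b∆ lineages under any alternative run. Of 47 gene fold changes recomputed, for the members discussed and, as alternatives chosen after seeing the data, for the called genes of other lists, 5 changed sign, each in a comparison where the gene was not called. Without 1 library, in endoderm, Cox6b1 ran from -0.055 to 0.068, Sdha from -0.10 to 0.014 and Ndufv1 from -0.038 to 0.071, and in mesoderm Cox6b2 ran from -0.38 to 0.12 and Ndufv1 from -0.095 to 0.067. Ndufv1 was -0.011 in endoderm under library totals and -0.0014 with a replicate block, and 0.0097 in mesoderm under upper quartile scaling. The cause was not tested. Uqcrb in endoderm was called under 5 of 16 alternatives (edgeR adjusted p from 0.0349), and Cox6b2 was called under 11 of 16. Same-numbered libraries of different groups correlated at -0.06 to 0.19 over 18 pairs, and different-numbered ones at -0.18 to 0.11. Of the 12 libraries, 9 correlated best with a library of their own number. Whether the numbers mark a shared source of spread was not tested. With a replicate block 3 genes were called in endoderm (Uqcrb added), 5 in mesoderm (Atp5g1 and Ndufa4 added), 2 between wild type lineages (Ndufa6 and Ndufaf2) and 0 otherwise. A fit of the compared libraries alone has no interaction value. Depth limits the scarce genes most, since 5 of the 91 could not be tested.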
